A study of Mus musculus with 5 samples.

Results

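Propionylation of lysine 23 on histone H3 (H3K23Pr) was followed at the genes of 10 cardiac transcription regulators: Gata4, Gata6, Nkx2-5, Tbx5, Tbx20, Hand2, Mef2a, Mef2c, Mef2d and Myocd. Every merged region of the deposited table whose gene list names one of them was taken, which gave 17 of 30965 regions, and all 10 genes had at least 1. The assay was ChIP-seq, in which antibody-bound chromatin is sequenced, in whole hearts from C57Bl/6J males, 12 weeks old. Mice ate a BCAA-control diet, which holds the branched-chain amino acids leucine, isoleucine and valine, or a BCAA-free diet, begun 4 days before surgery and kept up until the end. Mice then had sham surgery or TAC, transverse aortic constriction, which narrows the aorta and loads the left ventricle with pressure, and hearts were taken 2 weeks later. The 4 groups were control diet with sham, control diet with TAC, BCAA-free diet with sham and BCAA-free diet with TAC, named from the sample titles, which the treatment field contradicts for 3 of them. Each group is 1 library from 1 pool of 3 hearts. Differences are thus between single pools, with no replicate check and no p-value.

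These proteins form the core network that specifies and maintains heart muscle. GATA4 and GATA6 are zinc finger proteins, NKX2-5 is a homeodomain protein, TBX5 and TBX20 are T-box proteins and HAND2 is a basic helix-loop-helix protein. They bind together at enhancers of contractile and natriuretic peptide genes. The MEF2 proteins share a MADS domain and pass calcium and stress signals to the same genes, and myocardin (Myocd) is a coactivator of serum response factor in cardiac and smooth muscle. Acylation of histone H3 tails is found at active promoters and enhancers, and a propionyl group comes from propionyl-CoA, to which isoleucine and valine are broken down.

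Promoter sequences show how unlike the starts of these genes are. RefSeq (GRCm38.p6, the assembly that UCSC names mm10) gave 8 starts for 6 members (Nkx2-5, Tbx20, Hand2, Mef2a, Mef2c and Mef2d), each with 250 bases before and 50 after the start. Of the 8, 7 lay inside a member region. The 4 shown are the starts of these genes whose promoter-holding region had the largest and the smallest range over the libraries (Nkx2-5 and Mef2a), and the Mef2c starts inside regions of other classes. Nkx2-5 is at chr17:26841516-26841815 on the minus strand, Mef2a at chr7:67372809-67373108 on the minus strand, and Mef2c starts 2 and 3 at chr13:83523406-83523705 and chr13:83573357-83573656 on the plus strand. Capitals mark CpG dinucleotides.
Nkx2-5: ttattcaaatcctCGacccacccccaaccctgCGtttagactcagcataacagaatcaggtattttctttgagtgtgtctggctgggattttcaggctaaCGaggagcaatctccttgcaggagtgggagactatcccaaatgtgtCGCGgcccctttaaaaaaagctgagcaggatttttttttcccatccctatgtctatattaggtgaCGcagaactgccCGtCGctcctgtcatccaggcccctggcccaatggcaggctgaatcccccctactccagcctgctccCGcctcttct
Mef2a: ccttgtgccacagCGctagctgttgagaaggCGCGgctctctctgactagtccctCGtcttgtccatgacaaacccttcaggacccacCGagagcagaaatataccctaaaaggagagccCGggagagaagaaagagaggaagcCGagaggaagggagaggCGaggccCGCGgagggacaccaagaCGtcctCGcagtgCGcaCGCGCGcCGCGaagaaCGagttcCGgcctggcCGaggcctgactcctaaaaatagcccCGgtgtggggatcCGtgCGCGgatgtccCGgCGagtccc
Mef2c start 2: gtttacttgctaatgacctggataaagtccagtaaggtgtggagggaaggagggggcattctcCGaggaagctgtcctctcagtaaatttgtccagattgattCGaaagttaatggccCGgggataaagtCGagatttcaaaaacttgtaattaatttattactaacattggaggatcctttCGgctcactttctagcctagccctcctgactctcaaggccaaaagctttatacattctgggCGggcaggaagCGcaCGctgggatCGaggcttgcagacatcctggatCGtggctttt
Mef2c start 3: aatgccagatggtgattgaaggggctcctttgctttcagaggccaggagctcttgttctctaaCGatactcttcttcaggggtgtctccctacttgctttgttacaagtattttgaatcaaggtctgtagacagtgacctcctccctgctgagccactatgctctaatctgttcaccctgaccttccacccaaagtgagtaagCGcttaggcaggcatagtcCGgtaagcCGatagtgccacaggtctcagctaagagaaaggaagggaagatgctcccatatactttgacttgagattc

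The Mef2a window held 27 CpG dinucleotides, Mef2c start 2 held 10, Nkx2-5 held 9 and Mef2c start 3 held 4, against a median of 7 over 32851 RefSeq promoters. The windows not shown held 26 at Tbx20, 24 at Mef2d, 17 at Hand2 and 1 at Mef2c start 1. Motifs were searched on both strands, and a match is a description of letters. The Mef2a window held 1 match to the MEF2 site, beginning 2 bases before the start, a motif found in 3.19% of all these promoters, and 1 T-box half-site (GGTGTG, 19% of promoters), which Mef2c start 2 held too. Hand2 held 1 GATA site (AGATAA, 11.2%). A TATA box (TATAAA, 13.6%) lay at Mef2c starts 1 and 2. An NKX2-5 site (AAGTG, 46.4%) lay at Hand2 and at the 3 Mef2c starts, an E-box (CANNTG, 72.3%) at Nkx2-5, Hand2 and Mef2c starts 1 and 3, and no window held a CArG box (1.63%). The Tbx20 and Mef2d windows held none of the 7 motifs.

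Tags over all regions, derived from the deposited signal, came to between 16941000 and 18877000 per library, and the 17 regions took 0.218 to 0.285% of them. Since the scaling of the signal is not given, these totals do not measure sequencing depth, which is unknown. Intervals below cover counting error only. They are narrower at long regions, which hold more tags, and the share of all regions beyond counting error was not computed. Over all regions the median log2 ratio of average signal was 0.17 for the surgeries on the control diet (TAC over sham), and -0.22 for the BCAA-free against the control diet after TAC. Counts are therefore also given relative to these medians. All 10 cardiomyocyte markers had a region, with an average signal of at least 7.08 in every library, and all 10 fibroblast and all 10 endothelial markers had one too. In bulk tissue, fewer cells of a type and less mark per cell cannot be told apart.

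The mark lay over these genes as broad domains. The 17 regions had a median length of 26799 bp against 5599 bp for all regions, and 12 of them were at least 20 kb long, a length reached by 9.53% of all regions. The 20 kb threshold was chosen after lengths were seen. Every one of the 10 genes had a domain past it, that of Tbx20 only just, at 20399 bp. The share of all genes with such a region was not computed and can differ from the share of regions. The longest domain of the 10 genes lay over Gata4, at chromosome 14, 63189800 to 63278199, and its 88399 bp were exceeded by 0.378% of all regions. Myocd came next with 72799 bp (chromosome 11, 65199400 to 65272199), then Mef2c with 61399 bp (chromosome 13, 83556600 to 83617999), Hand2 with 60799 bp (chromosome 8, 57303800 to 57364599) and Gata6 with 60399 bp (chromosome 18, 11044400 to 11104799). For 5 genes (Gata4, Gata6, Nkx2-5, Hand2 and Mef2d) the domain covered 100% of the annotated gene body. At Hand2 and Nkx2-5 the domain was far longer than the gene, which spans 3535 bp and 6325 bp. Coverage was 79.9% at Myocd, 57.8% at Mef2c, 29.99% at Tbx5, 27.5% at Tbx20 and 26.9% at Mef2a.

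**Figure D1:**
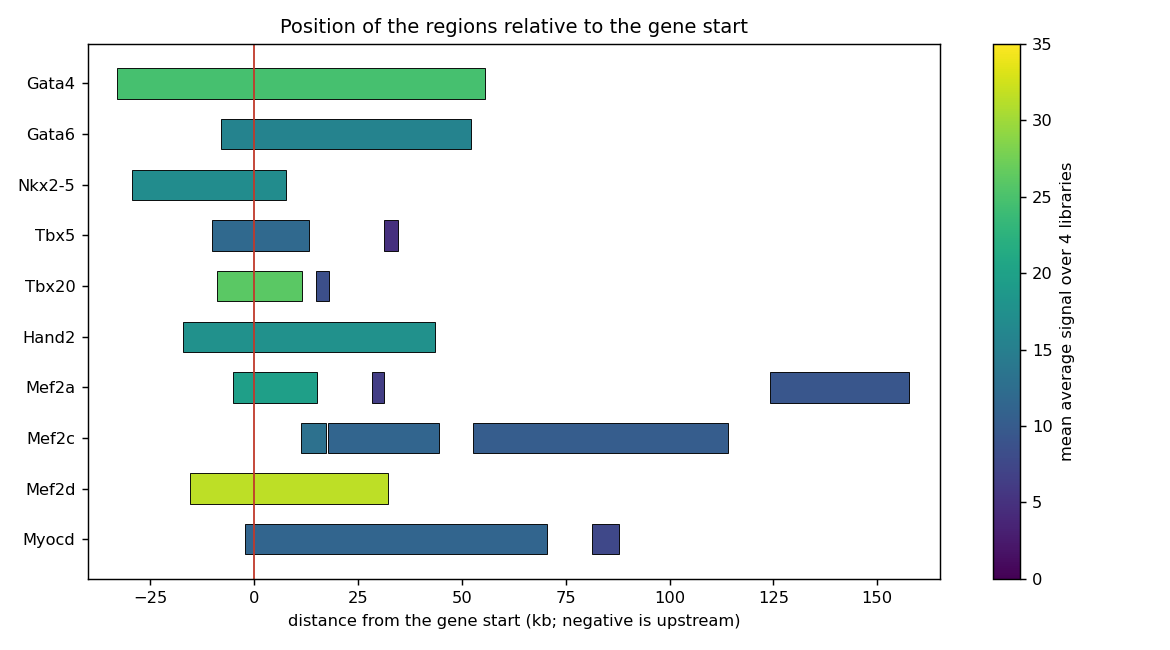
Bars show each member region by its distance from the gene start in kb, with colour for the mean average signal over the 4 libraries. Domains cross the start in 9 genes, while the 3 Mef2c regions lie downstream of start 1 and 1 Mef2a region lies 140959 bp from it.

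By class, 9 of the 17 regions held a promoter and a CpG island, 1 a promoter alone, 2 a CpG island alone and 5 neither. In the whole table these classes held 9713, 3598, 927 and 16727 regions. Regions are numbered here from the gene start outwards. The gene list of 11 regions names the member alone. The other 6 are shared, Gata4 with Neil2, Gata6 with 1010001N08Rik, Tbx5 region 1 with Gm5563, Myocd region 1 with Gm12295, Mef2a region 3 with Lysmd4, and Mef2d with Iqgap3, Gm19451 and 1700113A16Rik.

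**Figure D2:**
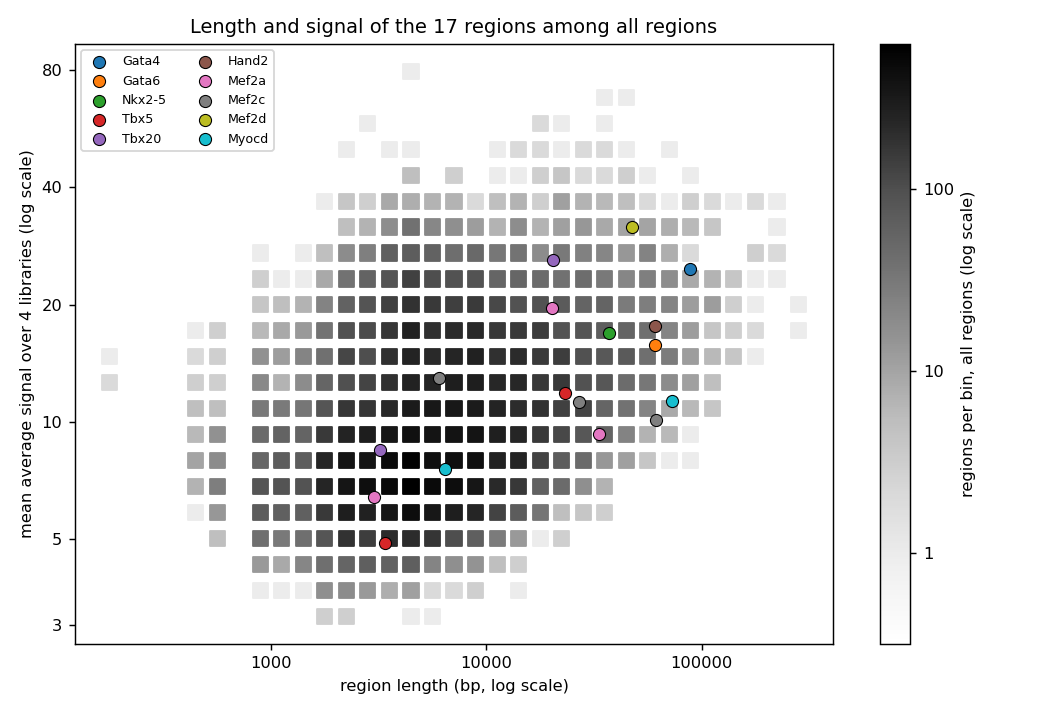
Points show the 17 regions by length in bp and by mean average signal over the 4 libraries, both on log scales, over grey bins that count all 30965 regions. The 12 regions of at least 20 kb lie toward the long end of the table, and 12 of the 17 lie above its median signal of 9.36.

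Signal per base spanned a wider range across the genes than across the 4 libraries at any one gene. At the strongest region of each gene, the average signal over the 4 libraries was 31.5 at Mef2d, 26.1 at Tbx20, 24.7 at Gata4 and 19.6 at Mef2a. It was 17.6 at Hand2, 16.9 at Nkx2-5, 15.7 at Gata6, 12.9 at Mef2c, 11.9 at Tbx5 and 11.3 at Myocd, against a median of 9.36 over all regions. Neighbours in this order had overlapping ranges over the libraries, except Gata4 (22.2 to 26.8) and Mef2a (18.1 to 21.6). The Mef2d domain was stronger than all but 0.756% of regions.

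Gata4, Tbx20 and Hand2, which in the heart are active in fibroblasts and other stromal cells as well as in cardiomyocytes, shared an order of libraries. Gata4 had an average signal of 24.6 in control sham, 22.2 in control TAC, 26.8 in BCAA-free sham and 25.2 in BCAA-free TAC. Tbx20 region 1, at chromosome 9, 24762800 to 24783199, had 25.2, 23.1, 29.6 and 26.4 in the same order of libraries, and Hand2 had 16.6, 15.3, 19.96 and 18.5. In each of the 3 the BCAA-free sham library was highest and the control TAC library lowest by average signal. Peak signal was highest in control TAC at Gata4 (155) and Tbx20 region 1 (103), and in BCAA-free sham at Hand2 (118). Gata6, the close relative of Gata4, had 14.6, 14.7, 16.5 and 17.1, so both BCAA-free libraries lay above both control libraries. The second Tbx20 region, 3199 bp long and inside the gene, had 8.98, 7.29, 9.53 and 7.98, again with BCAA-free sham highest and control TAC lowest, but with intervals that included 1 in all 4 comparisons.

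At Nkx2-5 and Tbx5, both tied to cardiomyocyte and conduction system identity, the strongest region was highest in the BCAA-free TAC library by average signal. The peak of Nkx2-5 was slightly higher in control TAC, at 90 against 88. Nkx2-5, at chromosome 17, 26833800 to 26870999, had an average signal of 14.2 in control sham, 16.3 in control TAC, 15.5 in BCAA-free sham and 21.5 in BCAA-free TAC. Tbx5 region 1, at chromosome 5, 119824600 to 119847799, had 11.6, 11.7, 9.80 and 14.5. The small second Tbx5 region, 33036 bp into the gene, was among the weakest of the table, with 5.65, 3.28, 5.60 and 5.06, and 97.4% of regions had a higher mean signal.

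**Figure D3:**
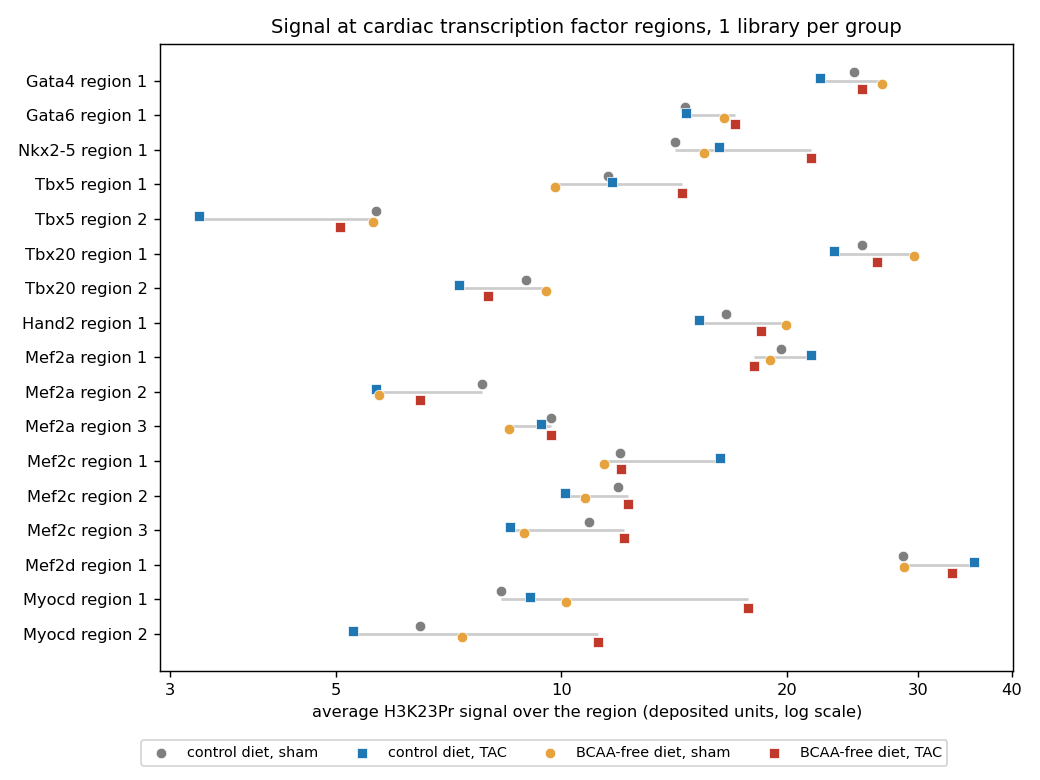
Points give the average H3K23Pr signal of each of the 17 regions in each of the 4 libraries on a log scale, and grey lines span the lowest to the highest library. Both Myocd regions, Nkx2-5 and Tbx5 region 1 have their highest value in the BCAA-free TAC library, and Gata4, Tbx20 and Hand2 in the BCAA-free sham library.

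The MEF2 genes did not move as one. Mef2d, at chromosome 3, 88127000 to 88174599, had an average signal of 28.6 in control sham, 35.6 in control TAC, 28.7 in BCAA-free sham and 33.2 in BCAA-free TAC. Both TAC libraries thus lay above both sham libraries by average signal. The peaks of Mef2d were 179, 262, 203 and 182, so by peak TAC lay below sham on the BCAA-free diet. Mef2a region 1, at chromosome 7, 67357800 to 67377999 around the start, had 19.7, 21.6, 19.0 and 18.1 and spanned a narrower range. The downstream Mef2a region 3 had 9.68, 9.39, 8.52 and 9.70, and the 2999 bp region inside the gene had 7.84, 5.66, 5.70 and 6.47.

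Within Mef2c, which encodes the MEF2 protein needed for heart tube development and also serves endothelial cells, neighbouring regions went opposite ways by average signal. Region 1, at chromosome 13, 83515400 to 83521399, had an average signal of 12.0 in control sham, 16.3 in control TAC, 11.4 in BCAA-free sham and 12.0 in BCAA-free TAC, with control TAC highest. Region 2 begins within 1 kb of the end of region 1, holds start 2 and a CpG island, and had 11.9, 10.1, 10.8 and 12.3. Region 3, the 61399 bp domain over start 3, had 10.9, 8.55, 8.92 and 12.1. In regions 2 and 3 the control TAC library was the lowest and the BCAA-free TAC library the highest by average signal. Peak signal at regions 1 and 2 went the same way, highest in control TAC (102 at each) and lowest in BCAA-free TAC (71 and 57). At region 3 the peak was 69, 62, 56 and 72 in the same order of libraries.

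Myocd had the widest range of the 10 genes. Region 1 had an average signal of 8.30 in control sham, 9.09 in control TAC, 10.1 in BCAA-free sham and 17.8 in BCAA-free TAC. Region 2, at chromosome 11, 65182200 to 65188599 and 84590 bp into the gene, had 6.47, 5.26, 7.36 and 11.2. In both regions the BCAA-free TAC library stood far above the other 3.

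The first comparison was of TAC with sham surgery in mice on the control diet. By average signal 10 of the 17 regions lay below a ratio of 1, 7 of them beyond counting error, and 14 of 17 below the median of all regions. Several of these belong to 1 gene: at the strongest region of each gene, 7 of the 10 genes lay above 1 and 3 below. The median log2 ratio over the regions was -0.12 by average signal, against 0.17 over all regions, and 0.25 by peak signal, against 0.29. No region was at least 1.5-fold higher, where 7.82% of all regions were, and 1 was at least 1.5-fold lower, where 3.4% were. Among all regions of at least 20 kb, 0.61% were higher and 0.271% lower by this threshold. The lower one was the weak and short Tbx5 region 2 (3399 bp), at 1.72-fold (95% counting interval 1.20 to 2.49).

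Of the other members on the control diet, Mef2c region 1 was 1.36-fold higher in TAC (1.18 to 1.58) and Mef2d 1.24-fold (1.20 to 1.29). Nkx2-5 was 1.15-fold higher (1.08 to 1.21), close to the 1.13-fold of the median region. Mef2c region 3 was 1.27-fold lower (1.21 to 1.35) and Mef2c region 2 1.18-fold lower (1.09 to 1.27). Gata4 was 1.11-fold lower (1.08 to 1.14), Tbx20 region 1 1.09-fold (1.03 to 1.16) and Hand2 1.09-fold (1.04 to 1.13). Mef2a region 1 was 1.10-fold (1.03 to 1.17) and Myocd region 1 1.09-fold (1.04 to 1.15) higher, and both lay below the median of all regions. Mef2a region 2 was 1.39-fold lower (1.02 to 1.88). The intervals of Gata6, Tbx5 region 1, Tbx20 region 2, Mef2a region 3 and Myocd region 2 included 1.

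**Figure D4:**
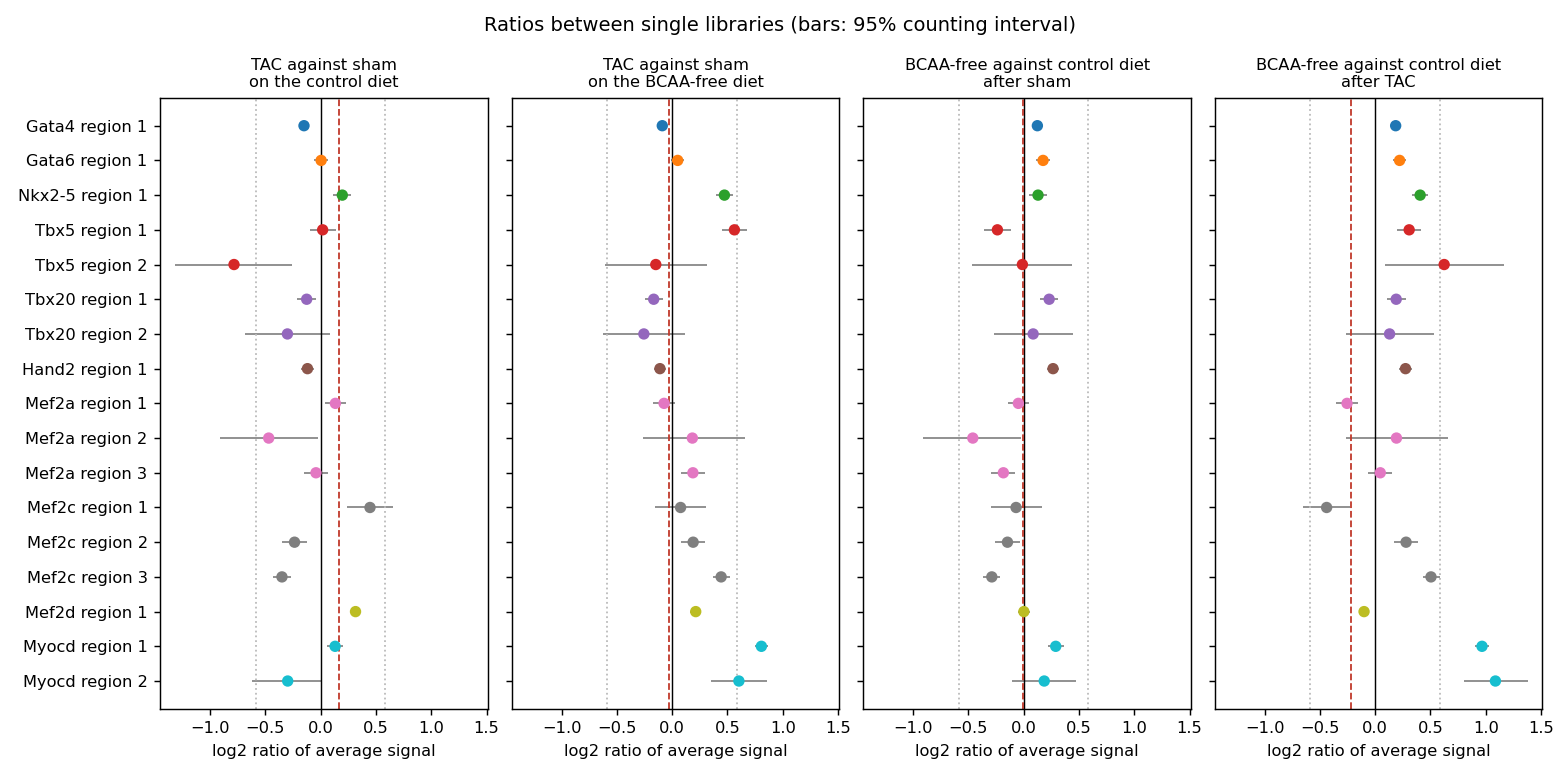
Points give the log2 ratio of average signal for each region in the 4 comparisons, with 95% counting intervals as bars, the median over all regions as a red dashed line and 1.5-fold as dotted lines. Both Myocd regions lie beyond 1.5-fold in the comparison of TAC with sham on the BCAA-free diet and in that of the diets after TAC.

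The second comparison was that of the surgeries on the BCAA-free diet. Both Myocd regions were at least 1.5-fold higher in TAC, region 1 at 1.75-fold (1.68 to 1.83) and region 2 at 1.52-fold (1.27 to 1.82). With a pseudocount of 1, region 2 was no longer past the threshold. The Myocd regions were the 2 of 17 past it, where 10.7% of all regions and 5.93% of those of at least 20 kb were. Of these 2, only region 1 is among the 12 member regions of at least 20 kb. No member was at least 1.5-fold lower, where 11.7% of all regions and 3.8% of those of at least 20 kb were. Tbx5 region 1 was 1.48-fold higher (1.36 to 1.60), Nkx2-5 1.39-fold (1.32 to 1.46) and Mef2c region 3 1.36-fold (1.29 to 1.43). Mef2d was 1.16-fold higher (1.12 to 1.20). On the other side of 1 were Tbx20 region 1 at 1.12-fold lower (1.06 to 1.19), Hand2 at 1.08-fold lower (1.04 to 1.12) and Gata4 at 1.06-fold lower (1.04 to 1.09). In all, 11 regions lay above 1 by average signal, and the median log2 ratio was 0.18 against -0.03 over all regions. The direction turned with the measure, as 11 of the 17 were lower in TAC by peak signal. The median log2 ratio of peak signal was -0.16, against -0.14 over all regions.

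The responses on the 2 diets were then set against each other, with the control diet's log2 ratio subtracted from that of the BCAA-free diet. By average signal the difference was above 0 beyond counting error in 9 regions, below 0 in 3 and within counting error in 5. These counts were not made over all regions. The difference had a median of 0.23, against -0.22 over all regions. It was largest at Myocd region 2 (0.90, 0.50 to 1.30), Mef2c region 3 (0.79, 0.68 to 0.90) and Myocd region 1 (0.68, 0.58 to 0.77). Tbx5 region 1 had 0.55 (0.38 to 0.71), Mef2c region 2 0.43 (0.27 to 0.58) and Nkx2-5 0.28 (0.17 to 0.39). Among all regions, 3.28% had a larger difference than Myocd region 2 and 4.65% a larger one than Mef2c region 3. The 3 regions with a smaller response on the BCAA-free diet were Mef2c region 1 (-0.37, -0.68 to -0.06), Mef2a region 1 (-0.21, -0.34 to -0.07) and Mef2d (-0.10, -0.17 to -0.03). Of these, only Mef2c region 1 lay below the median of all regions. The differences of Mef2a region 1 and Mef2d were exceeded by 48.9% and 40.2% of all regions. Gata6, Hand2 and both Tbx20 regions lay within counting error. With peak signal the difference was above 0 at Myocd region 2 (1.17), both Tbx5 regions (0.52 and 0.42) and Mef2c region 3 (0.52). Nkx2-5 lay near 0 (0.04), and all other member regions lay below 0, down to -0.97 at Mef2c region 2.

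The third comparison was of the BCAA-free with the control diet in sham hearts. No member region was at least 1.5-fold higher or lower, where 4.05% and 4.14% of all regions were. Among all regions of at least 20 kb, 0.814% were higher and 0.61% lower. Myocd region 1 was 1.22-fold higher on the BCAA-free diet (1.16 to 1.29), Hand2 1.20-fold (1.16 to 1.25), Tbx20 region 1 1.17-fold (1.11 to 1.24) and Gata6 1.13-fold (1.08 to 1.18). Nkx2-5 and Gata4 were each 1.09-fold higher, with intervals of 1.03 to 1.16 and 1.06 to 1.12. On the low side, Mef2c region 3 was 1.22-fold lower (1.16 to 1.29) and Tbx5 region 1 1.18-fold lower (1.08 to 1.28). Mef2a region 2 was 1.38-fold lower, with a wide interval (1.02 to 1.88). The median log2 ratio of the 17 was 0.0017, near that of all regions at -0.01.

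The fourth comparison was of the same diets in TAC hearts, and here the direction turned with the measure. By average signal 14 of the 17 regions were higher on the BCAA-free diet and 15 lay above the median of all regions, while by peak signal 12 of the 17 were lower. The median log2 ratio was 0.22 by average signal, against -0.22 over all regions, and -0.33 by peak signal, against -0.42. Myocd region 2 was 2.13-fold higher (1.75 to 2.60) and Myocd region 1 1.95-fold (1.87 to 2.04), ratios exceeded by 0.717% and 1.19% of all regions. With Tbx5 region 2 at 1.54-fold (1.06 to 2.24), 3 of 17 were at least 1.5-fold higher, where 5.21% of all regions and 2.2% of those of at least 20 kb were. Of these 3, only Myocd region 1 is among the 12 member regions of at least 20 kb. The count of 3 fell to 2 with a pseudocount of 1 or 5 and by peak signal, without Tbx5 region 2. No member was at least 1.5-fold lower, where 12.6% of all regions and 0.881% of those of at least 20 kb were.

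Smaller differences after TAC ran through the other members. Mef2c region 3 was 1.42-fold higher on the BCAA-free diet (1.346 to 1.497), Nkx2-5 1.33-fold (1.26 to 1.39), Tbx5 region 1 1.24-fold (1.15 to 1.34) and Hand2 1.21-fold (1.16 to 1.26). Gata6 was 1.17-fold higher (1.12 to 1.22), and Gata4 and Tbx20 region 1 were each 1.14-fold higher, with intervals of 1.10 to 1.17 and 1.08 to 1.21. Mef2c region 1 was 1.36-fold lower (1.17 to 1.57), Mef2a region 1 1.19-fold lower (1.12 to 1.27) and Mef2d 1.07-fold lower (1.04 to 1.11). Relative to the median of all regions Mef2d lay above it. This comparison shares a library with each of the first and second comparisons, so their values are not independent.

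Average and peak signal, the mean and the highest value within a region, did not move together. On the control diet, 5 of the 17 regions had a lower average but a higher peak in TAC than in sham, and 0 the reverse. Over all regions the shares were 10.9% and 4.77%. The 5 were Gata4, Tbx20 region 1, Hand2, Mef2a region 3 and Mef2c region 2. The peak of Gata4 was 119 in sham and 155 in TAC on the control diet, and 140 and 116 on the BCAA-free diet. The peak of Mef2c region 2 was 64, 102, 70 and 57 in the order control sham, control TAC, BCAA-free sham and BCAA-free TAC, and that of Mef2a region 3 was 66, 99, 71 and 62. In both the control TAC library stood far above the others by peak, but not by average.

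The same opposition was present in long regions of the whole table. Among all regions of at least 20 kb, 20.1% had a lower average and a higher peak in TAC than in sham on the control diet, and 2.203% the reverse. On the BCAA-free diet, 6 of 17 members had a higher average and a lower peak in TAC, and 0 the reverse. The former held for 25.1% of regions of at least 20 kb and 12.4% of all regions. In the comparison of the diets after TAC, 9 of 17 members had a higher average and a lower peak on the BCAA-free diet, as did 24.2% of regions of at least 20 kb and 11.3% of all regions. These were Gata4, Gata6, Nkx2-5, Hand2, both Tbx20 regions, Mef2a regions 2 and 3 and Mef2c region 2, so that their direction after TAC flips with the measure. Average signal as a percent of peak signal had a median of 20.3% over the members in control sham, 14.3% in control TAC, 16.9% in BCAA-free sham and 21.5% in BCAA-free TAC. Over all regions of at least 20 kb it was 16.7, 14.3, 16.1 and 18.3%. The control TAC library thus had the lowest share in both sets, and the BCAA-free TAC library the highest.

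**Figure D5:**
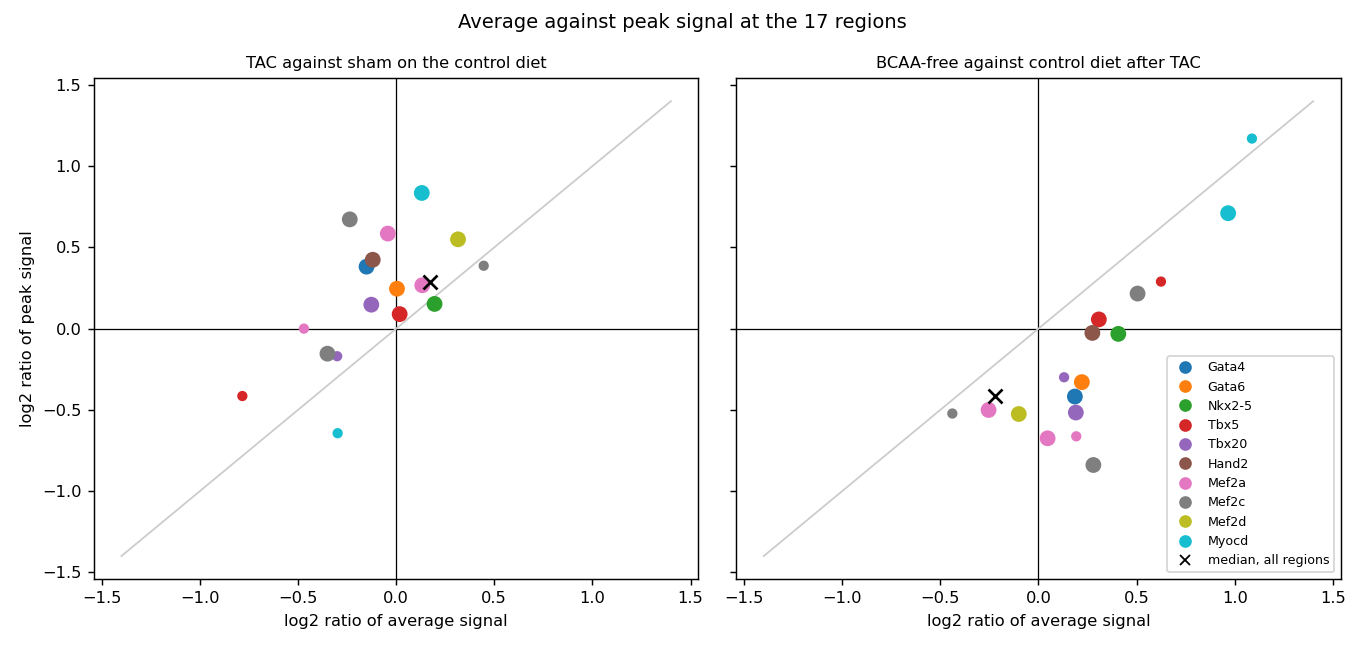
Each point is 1 member region, by its log2 ratio of average signal and of peak signal, with large points for regions of at least 20 kb and a cross for the median of all regions. On the control diet 5 regions lie at lower average and higher peak, and after TAC 9 lie at higher average and lower peak on the BCAA-free diet.

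At Myocd region 1 the average and the peak gave different TAC responses on the control diet. Region 1 had a peak of 37 in control sham, 66 in control TAC, 61 in BCAA-free sham and 108 in BCAA-free TAC, and region 2 had 25, 16, 25 and 36. The peak of region 1 was 1.77-fold that of sham after TAC on the BCAA-free diet and 1.64-fold higher than on the control diet after TAC. By peak, however, the control diet TAC library also lay 1.78-fold above its sham library, where the average differed by 1.09-fold. The gap between the diets in the TAC response at region 1 was therefore 0.68 by average signal and -0.01 by peak signal, while at region 2 it was 0.90 and 1.17. Tbx5 region 1 had peaks of 47, 50, 34 and 52, and its difference between diets was 0.55 by average and 0.52 by peak. At Nkx2-5 the peaks were 81, 90, 77 and 88, and the difference was 0.28 by average and 0.04 by peak.

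Call flags did not always follow the signal. Of the 17 regions, 11 were called in all 4 libraries, as were 58.3% of all regions. The strong Tbx20 region 1 was flagged in the control TAC library alone, where its average signal was the lowest of the 4 and its peak signal, at 103 against 72 to 100 in the others, the highest. Mef2d was flagged in every library except control TAC, where its average signal and its peak signal of 262 were both the highest. Among all 2561 regions with a mean signal of at least 20, 50 (1.95%) were not flagged in all 4 libraries, and 9 were not flagged in the library of highest signal. Flags were therefore not used to describe gain or loss of the mark at these genes.

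Related gene lists were read at the strongest region of each gene. Of 34 other cardiac transcription regulators 33 had a region, and 0 were at least 1.5-fold higher or lower in TAC on the control diet, where 5.86% and 0.694% of all genes were. On the BCAA-free diet 2 of the 33 were higher, where 3.79% of genes were, and 0 lower, where 4.88% were. These were Irx4, a ventricular homeodomain gene, at 1.69-fold (1.57 to 1.81), and Hopx, a homeodomain-like cofactor, at 1.57-fold (1.47 to 1.67). Between the diets, 0 of the 33 passed the threshold after sham, where 1.21% of genes were higher and 1.42% lower, and 0 passed after TAC, where 1.11% were higher and 11.7% lower. Their median log2 ratio after TAC was -0.17, against 0.21 for the 10 members and -0.31 over all genes.

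Class IIa histone deacetylases, which repress MEF2 proteins, and the kinases and phosphatases that relay calcium to MEF2 numbered 14. Hdac9 was 1.68-fold higher after TAC on the BCAA-free diet (1.298 to 2.21) and 1.53-fold lower on the BCAA-free diet after sham (1.18 to 2.02), 2 comparisons that share the BCAA-free sham library. Camk4, a calcium-dependent kinase, was 1.85-fold lower on the BCAA-free diet after TAC (1.31 to 2.63). No others of the 14 passed the threshold in any comparison. The share of all genes past it was 3.79% for higher after TAC on the BCAA-free diet, 1.42% for lower on that diet after sham and 11.7% for lower on it after TAC.

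Cardiac genes known as targets of GATA4, NKX2-5, TBX5 and MEF2 numbered 25, with Myh6 and Myh7 sharing 1 region. In TAC against sham, 3 were at least 1.5-fold higher on the control diet and 13 on the BCAA-free diet, and 0 were lower on either. Over all genes 5.86% and 3.79% were higher and 0.694% and 4.88% lower. Of the 25, 7 are also among the 10 cardiomyocyte markers given further on, so the lists are not independent. Their median log2 ratio was 0.28 on the control diet, against 0.27 over all genes, and 0.62 on the BCAA-free diet, against -0.04. The 3 included the natriuretic peptide genes Nppb at 2.73-fold (2.01 to 3.72) and Nppa at 1.67-fold (1.15 to 2.47). The highest ratios on the BCAA-free diet were those of Nppa at 2.19-fold (1.56 to 3.16) and Nppb at 1.93-fold (1.41 to 2.64), followed by the calcium release channel gene Ryr2 at 1.90-fold (1.63 to 2.22). On the BCAA-free against the control diet after TAC, 4 of 25 were higher, where 1.11% of genes were, and 0 lower, where 11.7% were. They were Pln at 1.86-fold (1.74 to 1.98), Actc1 at 1.84-fold (1.69 to 2.01), Ryr2 at 1.79-fold (1.54 to 2.07) and Ppargc1a at 1.60-fold (1.48 to 1.71). After sham 0 of 25 passed.

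The 12 smooth muscle genes known as targets of myocardin and serum response factor were read beside Myocd. Their median log2 ratio was 0.02 for the surgeries on the BCAA-free diet and -0.17 between the diets after TAC, against -0.04 and -0.31 over all genes. On the BCAA-free diet Des (desmin), which cardiomyocytes also express, was the 1 gene at least 1.5-fold higher, at 1.54-fold (1.48 to 1.62). Over all genes 3.79% were. Cnn1 (calponin) was 1.54-fold lower on the BCAA-free diet after TAC (1.01 to 2.36), where 11.7% of all genes were lower. On the control diet Cnn1 was 1.72-fold (1.11 to 2.68) and Myh11 1.51-fold (1.16 to 1.96) higher in TAC. Of all genes 5.86% were higher there. The Cnn1 region is 599 bp long and shared with Gm16845, and the Myh11 region is 2599 bp long and shared with Nde1.

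Markers of heart cell types differed between the same libraries. The summed average signal of the 10 cardiomyocyte markers was 116 in control sham, 135 in control TAC, 120 in BCAA-free sham and 173 in BCAA-free TAC. That of the 10 fibroblast markers was 124, 121, 159 and 99.3, and that of the 10 endothelial markers 200, 243, 160 and 201. By average signal, cardiomyocyte markers were thus highest in the library where Myocd, Nkx2-5 and Tbx5 region 1 were highest. Fibroblast markers were highest in the library where Gata4, Tbx20 and Hand2 were highest. The lowest libraries differed, as fibroblast markers were lowest in BCAA-free TAC, and Gata4, Tbx20 and Hand2 in control TAC. Gata6, Mef2c regions 2 and 3 and Mef2a region 3 were also highest in BCAA-free TAC.

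After TAC on the BCAA-free diet 6 of 10 cardiomyocyte and 4 of 10 endothelial markers were at least 1.5-fold higher than in sham and 0 lower. Of the 10 fibroblast markers 8 were lower and 0 higher. Over all genes 3.79% were higher and 4.88% lower. The median log2 ratios were 0.61 for cardiomyocyte, 0.42 for endothelial and -0.71 for fibroblast markers, against 0.81 at Myocd region 1 and 0.47 at Nkx2-5. Between the diets after TAC the cardiomyocyte median was 0.35, against 0.97 at Myocd region 1. The part of cell makeup in the members' values was not tested. The summed signal of smooth muscle and pericyte markers was 129, 145, 125 and 121 in the 4 libraries in the same order. For macrophage markers it was 129, 141, 121 and 101, for 7 of 8 epicardial and mesothelial markers 65.5, 83.8, 66.9 and 63.7, and for 6 of 8 neuronal and glial markers 52.2, 68.1, 54.7 and 64.5.

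The genes whose strongest region was most like Myocd region 1 over the 4 libraries were found among 9783 regions of at least median signal, by the distance between log2 signals centred on their own mean. The nearest was a region of the predicted genes Gm20740 and Gm4942 (distance 0.03), followed by Actc1, the cardiac actin gene (0.08) and Mtus2 (0.08). Myo16 was also among the nearest 5 (0.14). Actc1 had an average signal of 10.9 in control sham, 12.7 in control TAC, 14.0 in BCAA-free sham and 23.4 in BCAA-free TAC. All 4 of these had their highest value in the BCAA-free TAC library, and with 4 points the likeness is a description.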

How the data were processed

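H3K23Pr was profiled in 4 libraries, 1 per group, each a pool of 3 hearts, with 1 pooled input that has no column in the table and was not used here. Chromatin work was done by Active Motif, per the labels' protocols. The submitters' processing notes name BWA, MACS2 and mm10 but give no version. Per the file headers, the authors deposited an average and a peak signal (coverage) per merged region and library, call flags, region properties and a maximum tag number, read here as a score. Scaling between libraries is not given in the sources used here. The deposited log2 ratios equalled ratios recomputed from average signal to within 8.88e-16 and were used for that check alone.

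The maximum tag number equals the larger average signal times region length divided by 224, and the same divisor gave approximate tags per library. Any scaling of the tags by the authors would widen or narrow the intervals. Groups were compared by the ratio of average signals without a pseudocount, with an exact 95% Clopper-Pearson interval from those tags, called at 1.5-fold. Differences between diets have a normal interval from the same tags. No signal was 0. Tests need replicates and none was run. The ratio and interval code was tested on simulated data.

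Members, gene lists (145 of 149 symbols had a region, 3 through an older symbol in RefSeq) and motifs were chosen with earlier results of these data known, and the 20 kb and signal 20 thresholds after lengths and signals were seen. The rule named all members, up to 4 genes past 1.5-fold per list and comparison, 5 genes of nearest pattern for the member of largest range, and 4 promoters, of which the last 2 fell to 1 gene because no other member had another class. No protein sequences were used here. A few genes that the rule or lists would name are not reported here. At the 6 members with RefSeq starts given here, labelled distances matched 1 of the gene's starts to within 24 bp. The check does not cover the other members. Alternatives were peak signal, centring, pseudocounts of 1 and 5, a signal filter, regions naming 1 gene, the strongest region per gene, summed tags and the region nearest to the start. Python 3.11.15, numpy 2.4.6, pandas 2.3.3, scipy 1.17.1 and matplotlib 3.10.9 were used.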

Additional observations from a re-analysis of the deposited data

Results flagged for a closer look

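At 6 regions the response to TAC had opposite signs on the 2 diets, a difference that was not tested because each group is 1 library. With the control diet's log2 ratio subtracted from that of the BCAA-free diet, it was 0.90 at Myocd region 2, 0.79 at Mef2c region 3, 0.65 at Mef2a region 2, 0.43 at Mef2c region 2, 0.23 at Mef2a region 3 and -0.21 at Mef2a region 1. At Mef2c regions 2 and 3 both single responses lay beyond counting error. By peak signal the difference kept its sign at Myocd region 2 (1.17), Mef2c region 3 (0.52) and Mef2a region 1 (-0.56), and had the other sign at Mef2c region 2 (-0.97), Mef2a region 3 (-0.78) and Mef2a region 2 (-0.42).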

How the results depend on the processing

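No paired analysis was possible because each group holds 1 library, and for the same reason no library could be left out. Of 17 member regions, peak signal gave 3 at least 1.5-fold higher in TAC on the control diet in place of 0, 1 higher on the BCAA-free diet after sham in place of 0, and 3 lower on the BCAA-free diet after TAC in place of 0. With ratios centred on the median of the table, 2 were lower in TAC on the control diet in place of 1, 3 higher in TAC on the BCAA-free diet in place of 2, and 5 higher on the BCAA-free diet after TAC in place of 3. The 1 lower region in TAC on the control diet, Tbx5 region 2, was lost (0) with a pseudocount of 5, with a filter at median signal and with the strongest region per gene. The 2 higher in TAC on the BCAA-free diet became 1 with a pseudocount of 1 or 5, with the filter, with regions naming no other gene and with the strongest region per gene. The 3 higher on the BCAA-free diet after TAC became 1 with the filter and with the strongest region per gene, since fewer regions are counted. Other causes were not tested.

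Of the 40 ratios of strongest regions, 14 had the other sign by peak signal, 5 after centring and 4 with tags summed over a gene, and 0 with a pseudocount of 1 or with the region nearest to the start. The 2 ratios past 1.5-fold, both at Myocd region 1, kept their direction under all 5 of these settings. Precision is limited at the regions under 7 kb, whose intervals are widest.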
